A study of Mus musculus with 2 samples.

Results

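The phagocyte NADPH oxidase subunits examined were Cybb, Cyba, Ncf1 and Ncf4, chosen by symbol as genes of this enzyme, and all 4 were found among the 24421 gene symbols of the RNA-seq data. RNA was measured in granulocyte-monocyte progenitors (GMPs), the bone marrow cells that give rise to granulocytes and monocytes, which were sorted by flow cytometry from female mice. NTB-GMP came from non-tumor-bearing mice and 4T1-GMP from mice implanted orthotopically with 4T1 cells, a mammary carcinoma line of the mouse. The labels give the mice of both groups an F1 semi-syngeneic H-2b/d background, the study's methods give an age in the young adult range, and the number of mice behind each library is not given in the sources used here. Each group was 1 library of bulk RNA, so the tumor, the mice, the sort and the library preparation cannot be told apart. Intervals cover counting error alone, because each group was 1 library, and no difference has a replicate check. The reads carried no molecular identifiers, so copies of 1 molecule could count as separate reads, and the intervals may be too narrow. In bulk RNA, fewer cells of a type and less RNA per cell cannot be told apart.

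The phagocyte oxidase moves electrons from NADPH across a membrane to oxygen and so makes superoxide. Its catalytic core, flavocytochrome b558, is made of gp91phox (Cybb, also called NOX2) and p22phox (Cyba), and it stays inactive until cytosolic proteins, among them p47phox (Ncf1) and p40phox (Ncf4), join it together with a Rac GTPase. In myeloid cells the enzyme is known for killing microbes, loss of a subunit causes chronic granulomatous disease, and superoxide from this enzyme is among the products by which myeloid-derived suppressor cells act on T cells.

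Values are RPKM, reads scaled to transcript length and library size, so levels may be compared between genes as far as the length assigned to each gene holds. The library sizes behind the RPKM were 10180365 reads in NTB-GMP against 30016263 reads in 4T1-GMP (sizes after rescaling), 2.95 times as many. The ribosomal precursor Rn45s took 18.2% of recovered reads in NTB-GMP against 7.95% in 4T1-GMP. GMP markers were abundant in both libraries, with a summed level of 10657 RPKM in NTB-GMP against 16353 RPKM in 4T1-GMP over 10 of 10 genes. Most of both sums was Mpo, Elane, Prtn3 and Ctsg. Of the 10 genes, 6 were higher in 4T1-GMP. The others, Kit (78.5 and 49.1 RPKM), Cd34 (153.8 and 59.4 RPKM), Fcgr3 (53.1 and 28.6 RPKM) and Cebpa (45.6 and 35.5 RPKM), were lower. Listed at 0 in both were 4 of 11 erythroid and megakaryocyte markers (the hemoglobin genes) and 3 of 7 epithelial markers (Epcam, Krt14 and Cldn4). Other genes of the same lists had signal. Itga2b had 12.8 and 4.43 RPKM, Gata1 4.23 and 0.81 RPKM, and Klf1 2.18 and 0.33 RPKM. Krt18 had 12.8 and 8.90 RPKM, and Cdh1 had 5.36 and 1.04 RPKM. Each log2 ratio sets 4T1-GMP over NTB-GMP after 0.1 was added to both RPKM, which pulls low genes toward equal levels, and each fold is the ratio of the RPKM themselves. A mean RPKM of 1 over the libraries was the minimum for a gene to be placed among all genes, which 10378 genes and all 4 subunits reached. Because it is a mean, a gene could reach it through 1 library alone, the one where it was higher.

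The promoter windows of Cybb, Cyba and Ncf1 are shown as the sequences before the subunit genes, and they are all that the promoter table held for the 4 subunits. These are the 250 bases before the RefSeq start in GRCm38.p6, 5' to 3' on the gene's strand, at chrX:9469325-9469574 (Cybb), chr8:122432941-122433190 (Cyba) and chr5:134229626-134229875 (Ncf1), all on the minus strand. Capitals mark each match of GAAANNGAAA on either strand, the core repeat of an interferon response element.
Cybb: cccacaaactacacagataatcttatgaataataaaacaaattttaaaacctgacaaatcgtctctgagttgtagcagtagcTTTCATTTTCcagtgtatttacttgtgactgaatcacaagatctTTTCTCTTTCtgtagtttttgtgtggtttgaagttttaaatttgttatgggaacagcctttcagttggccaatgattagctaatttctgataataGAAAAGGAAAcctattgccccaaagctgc
Cyba: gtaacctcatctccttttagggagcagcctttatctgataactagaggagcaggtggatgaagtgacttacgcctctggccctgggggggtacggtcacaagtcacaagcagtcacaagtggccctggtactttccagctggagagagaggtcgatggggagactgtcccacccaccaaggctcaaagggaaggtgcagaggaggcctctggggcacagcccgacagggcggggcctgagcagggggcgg
Ncf1: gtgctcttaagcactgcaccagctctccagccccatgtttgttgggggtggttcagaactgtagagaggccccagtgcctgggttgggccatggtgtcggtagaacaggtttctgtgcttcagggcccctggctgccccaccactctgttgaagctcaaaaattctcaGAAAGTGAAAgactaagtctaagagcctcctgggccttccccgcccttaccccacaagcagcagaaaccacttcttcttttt

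The Cybb window held 3 matches, from -168 to -159, from -124 to -115 and from -29 to -20 relative to the start, and Ncf1 held 1, from -82 to -73. The Cyba window held 0. The same letters were found in 2.98% of 32851 mouse promoter windows of this length. The motifs were chosen after these windows had been searched, so this share does not measure how unusual the matches are. Of the other motifs searched on both strands, GAGGAA (a PU.1-type site) was found in 23.3% of all windows and in none of these 3, CCAAT was found in 33.8% of all windows and 1 time in Cybb, and TGANTCA (an AP-1 site) was found in 6.75% of all windows and 1 time in Cybb. The windows also differed in base composition, with 34% G and C in Cybb, 60% in Cyba and 54.4% in Ncf1. The Cybb window lies inside the annotated gene span, which extends farther upstream than the start used here. The matches describe letters only.

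All 4 subunits were higher in 4T1-GMP than in NTB-GMP. Cybb was 4.89-fold higher, Ncf4 3.05-fold, Ncf1 2.04-fold and Cyba 1.80-fold, so that 3 of 4 were at least 2-fold higher. Of the 10378 genes above the minimum, 3.25% were at least 2-fold higher and 4.92% at least 2-fold lower, and the median log2 ratio was 0.051, with 54.7% of genes higher. The median log2 ratio of the 4 subunits was 1.32. When library sizes left out Rn45s, Ncf1 was under 2-fold and the genes past 2-fold became 260 higher and 700 lower, in place of 337 higher and 511 lower.

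Cybb, which encodes the electron-transferring subunit gp91phox, lies on chromosome X from 9435252 to 9487766 on the minus strand (GRCm38.p6, RefSeq). Its level was 5.71 RPKM in NTB-GMP (95% exact Poisson interval, 5.05 to 6.42) against 27.9 RPKM in 4T1-GMP (27.0 to 28.8), from 276 and 3979 reads. The 2 intervals were far apart. The log2 ratio was 2.27 (95% Clopper-Pearson interval, 2.11 to 2.47), above that of 99.2% of the 10378 genes. In NTB-GMP, 26.0% of these genes had a lower level than Cybb, and in 4T1-GMP 75.5% did. Among the genes above the minimum, Cybb thus lay in the lower part of the range in NTB-GMP and in the upper part in 4T1-GMP. Symbols under the minimum, among them 9588 at 0 in both libraries, are left out of this range.

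Cyba encodes p22phox, the partner that stabilizes gp91phox in the membrane and docks p47phox, and lies on chromosome 8 from 122424771 to 122432940 on the minus strand. Its level was 52.9 RPKM in NTB-GMP (47.9 to 58.3, 409 reads) against 95.4 RPKM in 4T1-GMP (91.5 to 99.5, 2174 reads). The intervals did not overlap, and the log2 ratio was 0.85 (0.70 to 1.01), above that of 95.7% of the 10378 genes. This interval reaches past 2-fold, so counting error alone leaves the side of 2-fold unsettled for Cyba. Cyba lies within the span of Gm20388 on the opposite strand and shares 0 exonic bases with it.

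Ncf1 encodes p47phox, the organizer that is phosphorylated on activation and carries the cytosolic complex to the membrane. It lies on chromosome 5 from 134220053 to 134229628 on the minus strand. Its level was 63.5 RPKM in NTB-GMP (60.7 to 66.4, 1919 reads) against 129 RPKM in 4T1-GMP (127 to 132, 11524 reads). Ncf1 had the highest level of the 4 subunits in both libraries. The log2 ratio was 1.03 (0.96 to 1.10), with 2-fold inside the interval. Of the 3663 exonic bases of Ncf1, 408 (11.1%) are shared with Gtf2ird2 on the opposite strand, and whether reads were counted by strand is not given in the sources used here. Gtf2ird2 was at 5.44 RPKM in NTB-GMP against 2.58 RPKM in 4T1-GMP, far under Ncf1 and lower where Ncf1 was higher.

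Ncf4 encodes p40phox, which binds phosphatidylinositol 3-phosphate and sustains oxidase activity on phagosomes. It lies on chromosome 15 from 78244164 to 78262582 on the plus strand. Its level was 39.3 RPKM in NTB-GMP (36.2 to 42.6, 582 reads) against 120.0 RPKM in 4T1-GMP (116.8 to 123.3, 5237 reads). The log2 ratio was 1.61 (1.49 to 1.74), above that of 98.7% of the 10378 genes, and the whole interval lay above 2-fold. No other annotated gene overlapped Cybb or Ncf4.

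**Figure D1:**
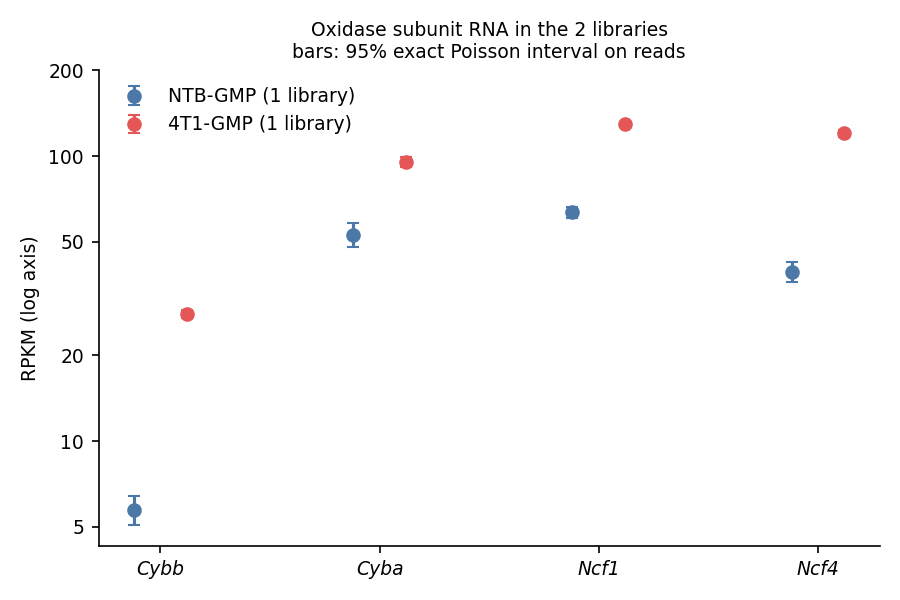
Levels of the 4 subunits in RPKM on a log axis, with 1 point per library (blue, NTB-GMP; red, 4T1-GMP) and bars for the 95% exact Poisson interval on the reads. Each red point lies above its blue point, with the widest gap at Cybb (5.71 and 27.9 RPKM).

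The subunits were not higher by 1 common factor. In NTB-GMP the order of levels was Ncf1, Cyba, Ncf4 and Cybb, and in 4T1-GMP it was Ncf1, Ncf4, Cyba and Cybb. The intervals of neighbors in either order did not overlap, so counting error does not change the order within a library. The order also rests on the length assigned to each gene, which for Ncf1 was 2969 bases beside a nearest annotated transcript of 2882 bases. Ncf1 and Ncf4 were close in 4T1-GMP (129 and 120 RPKM). The highest level was 11.1 times the lowest in NTB-GMP and 4.63 times in 4T1-GMP, a narrower spread. The summed level of the 4 genes was 161.4 RPKM in NTB-GMP against 372.6 RPKM in 4T1-GMP, a ratio of 2.31. Cybb made up 3.54% of that sum in NTB-GMP and 7.49% in 4T1-GMP, and Ncf4 made up 24.4% and 32.2%. The shares of Cyba (32.8% and 25.6%) and Ncf1 (39.3% and 34.7%) were lower in 4T1-GMP although their levels were higher.

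A ratio of 2 subunits within a library does not depend on the library size. The 2 chains of the membrane core stood at 0.108 Cybb per Cyba in NTB-GMP and 0.292 in 4T1-GMP, a 2.71-fold difference (95% interval, 2.30 to 3.20). Cyba therefore remained the more abundant RNA of the core in both libraries. Cybb was also 2.40-fold higher relative to Ncf1 (2.10 to 2.75) and 1.60-fold higher relative to Ncf4 (1.38 to 1.87). Among the other subunits, Ncf1 per Ncf4 was 1.61 in NTB-GMP and 1.08 in 4T1-GMP, a factor of 0.667 (0.604 to 0.737), and Cyba per Ncf4 differed by a factor of 0.591 (0.515 to 0.679). Cyba per Ncf1 differed least, by a factor of 0.885 (0.787 to 0.997). None of the 6 intervals included 1.

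**Figure D2:**
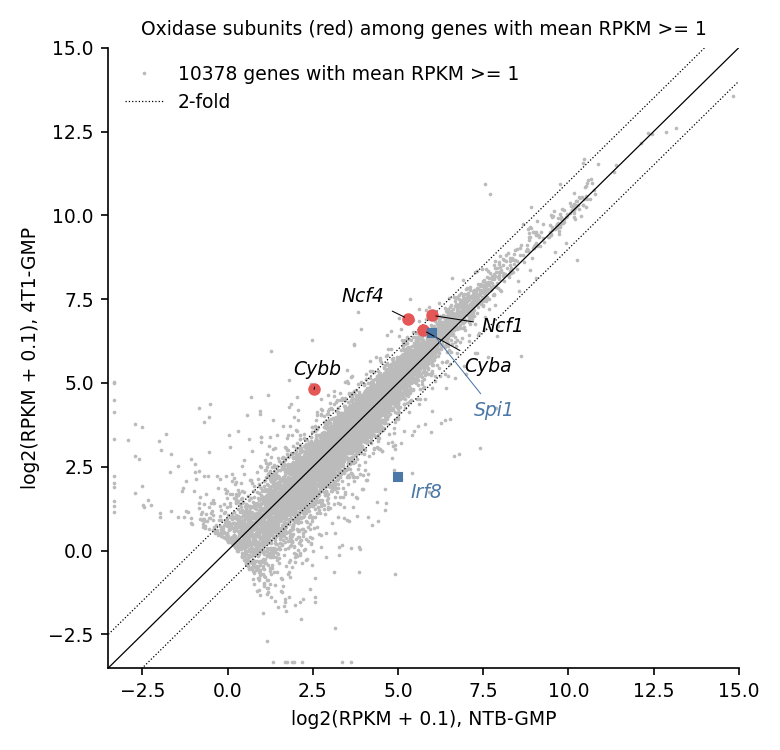
Level in 4T1-GMP against level in NTB-GMP, both as log2(RPKM + 0.1), for 10378 genes (gray), with the solid line for equal levels and dotted lines for 2-fold. The 4 subunits (red) and the transcription factor Spi1 lie above the line of equal levels, and Irf8 lies below it, at 32.0 RPKM in NTB-GMP against 4.45 RPKM in 4T1-GMP.

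The proteins that act directly with the subunits were closer to the median of all genes than the subunits were. Of 8 partner genes, 7 were higher in 4T1-GMP, 0 were 2-fold higher and 0 were 2-fold lower, with a median log2 ratio of 0.32. Rac2, the main Rac GTPase of the neutrophil oxidase, had 91.2 RPKM in NTB-GMP against 136.3 RPKM in 4T1-GMP, a log2 ratio of 0.58 (0.52 to 0.64). Rac1 had a log2 ratio of 0.31, and Rap1a, a small GTPase that copurifies with the flavocytochrome, 0.33. The inhibitors that hold Rac in the cytosol had log2 ratios of 0.76 (Arhgdib, 472.8 RPKM in NTB-GMP against 800.6 RPKM in 4T1-GMP) and 0.26 (Arhgdia). Hvcn1, the voltage-gated proton channel that balances the charge moved by the oxidase, had 12.2 RPKM in NTB-GMP against 20.3 RPKM in 4T1-GMP, a log2 ratio of 0.73 (0.57 to 0.91). Its interval overlapped that of Cyba.

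Besides Cyba, the listed factors that act on the stability of gp91phox were BC017643 and Nrros, and neither differed in the manner of Cybb. BC017643, entered as an older symbol of the chaperone gene Cybc1, had 20.6 RPKM in NTB-GMP against 19.4 RPKM in 4T1-GMP, a log2 ratio of -0.087 (-0.29 to 0.12), with equal levels inside the interval. Nrros, a negative regulator that promotes degradation of gp91phox, had 50.7 RPKM in NTB-GMP against 54.8 RPKM in 4T1-GMP, a log2 ratio of 0.11 (0.037 to 0.19), and its direction turned under other scalings, at -0.051 when library sizes left out Rn45s and -0.095 with quantile normalization. The interval of Cybb lay far above both.

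**Figure D3:**
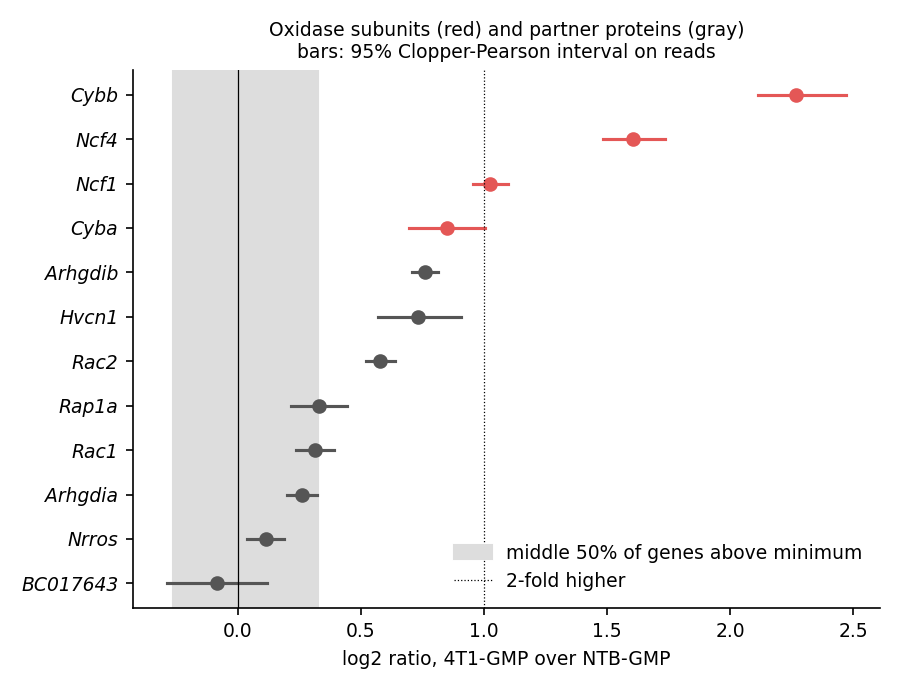
Log2 ratio of 4T1-GMP over NTB-GMP for the 4 subunits (red) and 8 partner genes (gray), with bars for the 95% Clopper-Pearson interval on the reads, a gray band for the middle 50% of the 10378 genes and a dotted line at 2-fold. Cybb (2.27) and Ncf4 (1.61) lie wholly right of the dotted line, the intervals of Ncf1 and Cyba cross it, and the partners lie left of it.

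Of the NOX and DUOX catalytic genes listed, Cybb alone had reads in either library. Of 9 genes of the other NADPH oxidases, Nox1, Nox3, Nox4, Duox1, Duox2, Duoxa1 and Duoxa2 were listed at 0 in both libraries, where a count of 0 still allows up to 3 reads (one-sided limit). Noxo1, the p47phox homolog of the NOX1 complex, had 0.92 RPKM in NTB-GMP against 0.83 RPKM in 4T1-GMP, from 21 and 56 reads. Noxa1, the activator of the NOX1 complex, had 1 read in NTB-GMP and 0 in 4T1-GMP.

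Of 33 genes of the receptors and kinases that trigger oxidase assembly, 32 reached the minimum. Of these, 5 were at least 2-fold higher (C5ar1, Fpr2, Fpr1, Pik3r5 and Itgb2), 1 was at least 2-fold lower (Prkca), and the median log2 ratio was 0.093, near that of all genes. With a minimum mean RPKM of 5, 2 genes of this list in place of 6 were past 2-fold. The receptors for chemoattractants that prime and activate the oxidase, C5ar1, Fpr2 and Fpr1, were under 1 RPKM in NTB-GMP. They reached the minimum only through 4T1-GMP, where they were higher, so their places among the 5 came with their rise. Fpr2, a formyl peptide receptor, had 0.38 RPKM in NTB-GMP against 6.48 RPKM in 4T1-GMP, from 5 and 252 reads, a log2 ratio of 3.78 (2.85 to 5.73). Fpr1 had 0.30 RPKM and 3.35 RPKM, from 4 and 133 reads, a log2 ratio of 3.12 (2.11 to 5.39). The intervals of Fpr2 and Fpr1 belong to the RPKM ratio without the added 0.1, which was 17.1 for Fpr2 and 11.3 for Fpr1. C5ar1, the C5a receptor, had 1 read in NTB-GMP, under the 3 reads taken as detected, against 142 in 4T1-GMP. These gave 0.08 and 3.68 RPKM, and the RPKM ratio of 48.2 (8.51 to 1915) rests on that 1 read. With a pseudocount of 1 the log2 ratios were 2.44 for Fpr2, 1.75 for Fpr1 and 2.12 for C5ar1, the last in place of 4.42. These 3 receptors remained low next to the subunits in 4T1-GMP. At the other end of the list, the log2 ratio was -1.25 for Prkca and -0.90 for Prkce, protein kinase C isoforms, and -0.89 for Fcgr3, an Fc receptor for IgG.

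Of 21 transcription factors linked to the oxidase genes, 20 reached the minimum, and 1 of these was at least 2-fold higher (Cebpb) and 6 at least 2-fold lower (Irf8, Jun, Meis1, Runx1, Satb1 and Irf2). The median log2 ratio was -0.30, the opposite sign from the subunits. With a pseudocount of 1, 4 genes of this list in place of 7 were past 2-fold. Spi1 encodes PU.1, which acts at the promoters of CYBB, NCF1 and NCF4, and had 63.9 RPKM in NTB-GMP against 90.1 RPKM in 4T1-GMP, a log2 ratio of 0.50 (0.39 to 0.60). Irf8, which binds with PU.1 at the CYBB promoter, had 32.0 RPKM in NTB-GMP against 4.45 RPKM in 4T1-GMP, from 1117 and 459 reads, a log2 ratio of -2.82 (-3.00 to -2.68). Irf8 and Cybb thus lay far apart on opposite sides of equal levels. Cebpe, a factor of late granulocyte differentiation, had 48.5 RPKM in NTB-GMP against 70.4 RPKM in 4T1-GMP, a log2 ratio of 0.54 (0.41 to 0.67). Cebpb had 5.76 RPKM in NTB-GMP against 11.9 RPKM in 4T1-GMP, a log2 ratio of 1.04 with an interval (0.72 to 1.39) that includes 2-fold. Jun, an AP-1 subunit, stood at a log2 ratio of -1.91 and Meis1, a homeobox factor of stem and progenitor cells, at -1.83.

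Of 15 genes listed under NADPH supply, 13 reached the minimum, 1 of which was at least 2-fold higher (Mthfd2) and 0 at least 2-fold lower. The list includes mitochondrial enzymes, and whether a listed gene supplies the NADPH that the oxidase uses was not tested. The median log2 ratio was 0.36, and 12 of 13 were higher, beside 54.7% of all genes above the minimum. Mthfd2, a mitochondrial folate enzyme, had 7.78 RPKM in NTB-GMP against 18.5 RPKM in 4T1-GMP, a log2 ratio of 1.24. Pgd, an NADPH-producing enzyme of the pentose phosphate pathway, had 102.0 RPKM and 174.0 RPKM, a log2 ratio of 0.77, and G6pdx, the first enzyme of that pathway, had a log2 ratio of 0.69. Me2, a malic enzyme, stood at 0.73 and Nnt, the mitochondrial transhydrogenase, at -0.14.

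Of 23 genes that handle the oxidants made from superoxide, 22 reached the minimum, with 1 at least 2-fold higher, 1 at least 2-fold lower and a median log2 ratio of 0.25. Gclm, the modifier subunit of the enzyme that limits glutathione synthesis, had 20.2 RPKM in NTB-GMP against 54.7 RPKM in 4T1-GMP, a log2 ratio of 1.43. The log2 ratio was 0.97 for Glrx (glutaredoxin) and 0.82 for Prdx5 (a peroxiredoxin), and it was -0.92 for Prdx4 and -0.17 for Sod1, which turns superoxide into hydrogen peroxide. Epx, the eosinophil peroxidase, had a log2 ratio of -1.44. Mpo, which uses hydrogen peroxide to make hypochlorous acid, had 5162 RPKM in NTB-GMP against 5625 RPKM in 4T1-GMP, a log2 ratio of 0.12.

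Markers of other cell types and stages of the bone marrow also differed between the libraries. Of 14 genes listed as mature neutrophil markers, 12 were at least 2-fold higher in 4T1-GMP and 14 were higher, with a median log2 ratio of 2.81. Their summed level was 523.6 RPKM in NTB-GMP against 4086 RPKM in 4T1-GMP, most of it S100a8 (208.0 and 1594 RPKM) and S100a9 (189.1 and 1974 RPKM). The 2 under 2-fold were Chil3, at 0.66, and Padi4, at 0.13 (-0.43 to 0.72). The list includes granule genes and does not separate mature neutrophils from their precursors. None of these markers was at 0, and the levels of single markers ranged from 0.43 to 208 RPKM in NTB-GMP against from 2.85 to 1974 RPKM in 4T1-GMP. Mmp8, Mmp9 and Ly6g had 0.52, 0.59 and 0.43 RPKM in NTB-GMP and reached the minimum only through 4T1-GMP. Mature neutrophils also express the 4 subunits, and the part of mature neutrophils or of their precursors in the subunit ratios was not tested. Of 11 monocyte and dendritic cell markers above the minimum, 7 were at least 2-fold lower, with a median log2 ratio of -1.80 and a summed level over all 14 listed of 436.9 RPKM in NTB-GMP against 274.2 RPKM in 4T1-GMP. The largest part of both sums was Cst3 (203.5 and 182.6 RPKM), which hardly differed, at -0.16. The others under 2-fold were Ccr2, at -0.73, Csf1r, at -0.62, and F13a1, at 0.016, the only one higher. Macrophage markers summed to 19.6 and 19.7 RPKM, most of it Vcam1 (16.7 and 19.0 RPKM), while Adgre1 stood at 1.24 and 0.50 RPKM, C1qb at 11 and 0 reads and Cd163 at 12 and 3 reads. Basophil, mast cell and eosinophil markers were lower, with 6 of 8 at least 2-fold lower and sums of 1824 and 650.3 RPKM. Markers of stem and early progenitor cells summed to 45.2 and 20.7 RPKM, and those of erythroid cells and megakaryocytes to 22.0 and 6.44 RPKM. B cell markers summed to 15.5 and 12.5 RPKM (Ighm was not in the files), T and NK cell markers to 191.4 and 338.4 RPKM, almost all of it Nkg7 (190.3 and 337.0 RPKM), and epithelial markers to 18.3 and 10.1 RPKM. Of the 10 GMP markers, 6 were higher, 4 of them at least 2-fold (Ms4a3, Prtn3, Ctsg and Csf3r), and 1 was at least 2-fold lower (Cd34). Kit, Fcgr3 and Cebpa were also lower, with log2 ratios of -0.67, -0.89 and -0.36.

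**Figure D4:**
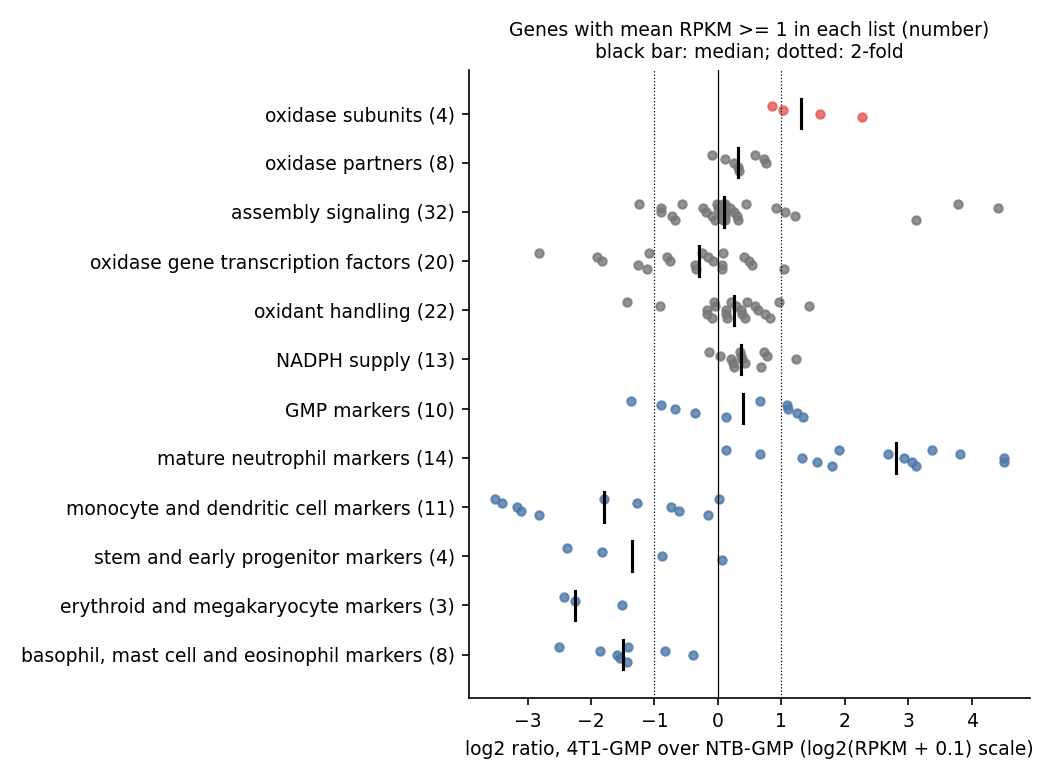
Log2 ratio of 4T1-GMP over NTB-GMP for each gene above the minimum in the subunits (red), the oxidase-related lists (gray) and the cell type markers (blue), with the number of genes in parentheses, a black bar for the median and dotted lines at 2-fold either way. Lists with fewer than 3 such genes are left out. The median is 1.32 for the subunits, 2.81 for the genes listed as mature neutrophil markers and -1.80 for monocyte and dendritic cell markers.

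For each subunit, the 2 genes with the most similar pair of levels were found by their distance in log2(RPKM + 0.1) over the 2 libraries. With 2 libraries such a likeness describes 2 values only. Nearest to Cybb were 1810011H11Rik (5.40 RPKM in NTB-GMP against 31.4 RPKM in 4T1-GMP, distance 0.19) and Cxcr2, a chemokine receptor of neutrophils (6.59 and 23.1 RPKM, distance 0.34). Both lay farther from Cybb than the nearest 2 genes of each other subunit lay from it. Nearest to Cyba were Cyc1, cytochrome c1 of the respiratory chain (distance 0.038), and Rgcc (0.052). Nearest to Ncf1 were Manf (0.077) and Tmx4 (0.17), and nearest to Ncf4 were Eno1b (0.12), whose reads are uncertain because it is a near-identical copy of Eno1, and Med21, a Mediator subunit (0.14).

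The size of each ratio depended on the scaling, and the order of the 4 ratios did not. Over 8 alternatives, the log2 ratio ranged from 2.11 to 2.36 for Cybb and from 1.40 to 1.69 for Ncf4, at least 2-fold in 8 of 8 for both. For Ncf1 it ranged from 0.78 to 1.11 and was at least 2-fold in 3 of 8. For Cyba it ranged from 0.64 to 0.93, under 2-fold in 8 of 8. All 4 subunits were higher in 4T1-GMP under each of these alternatives.

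**Figure D5:**
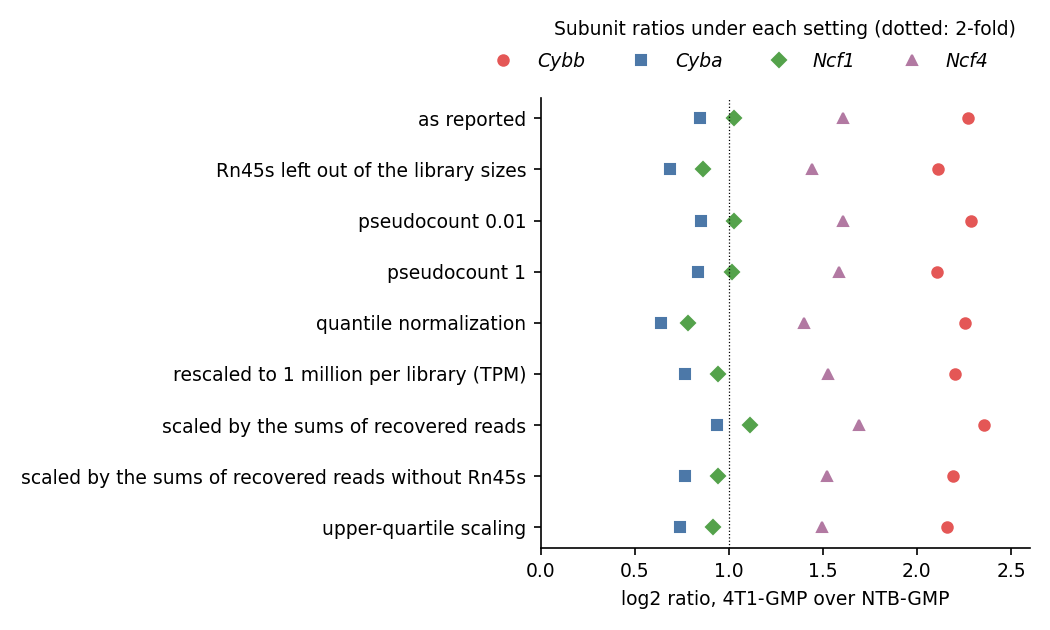
Log2 ratio of 4T1-GMP over NTB-GMP for Cybb (circles), Ncf4 (triangles), Ncf1 (diamonds) and Cyba (squares) as reported and under 8 other settings of scaling or pseudocount, with a dotted line at 2-fold. Cybb and Ncf4 stay right of the line in each row, Cyba stays left of it, and Ncf1 lies on either side, from 0.78 to 1.11.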

How the data were processed

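Bulk RNA-seq of sorted GMPs gave 2 libraries, NTB-GMP and 4T1-GMP. What the authors deposited were RPKM, 1 per gene symbol and library, scaled by the length of the gene and the size of the library, on mouse build mm10. The submitters' processing notes name CASAVA 1.8.2, cutadapt 1.2.1, TopHat2 2.0.13, Picard 1.97, HTSeq 0.6.1 and edgeR 3.12.1, without roles or settings. Library sizes were not whole numbers when worked back from the RPKM, so they had been rescaled before deposit, and the RPKM depend on that scaling. The RPKM were at full precision, so whole reads were recovered for 14825 of 14833 symbols above 0 (tested on simulated data). For some genes both counts may be too low by the same factor. For the 4 subunits the gene lengths they imply were 4750 (Cybb), 759 (Cyba), 2969 (Ncf1) and 1454 (Ncf4) bases, beside GENCODE M21 transcripts of 4752, 744, 2882 and 1464 bases. Both libraries had 0 for 9588 symbols.

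The ratios used log2(RPKM + 0.1) over genes whose mean RPKM reached 1 (the minimum), and at least 2-fold was the size by which genes were called. With 1 library per group no test was possible. Intervals are 95% exact Poisson (levels) and Clopper-Pearson (ratios) on the recovered reads, and a level under 3 reads was not taken as detected. The ratio intervals hold no pseudocount, so for low genes they are not centered on the printed log2 ratio. The members, the 6 gene lists and the 10 marker lists were chosen with earlier results of these data known, and lists were written from knowledge. Genes named were the 4 subunits, the partners (1 gene first placed in that list is left out and not reported here), Spi1, Irf8 and Cebpe, the 3 largest rises and falls per list, and the 2 genes nearest to each subunit. Pik3r5, Itgb2, Satb1, Runx1, Irf2, G6pdx, Mpo, Gtf2ird2, the markers and the genes listed at 0 or under the minimum were named after their values were seen, to complete a count. Alternatives were pseudocounts of 1 and 0.01, a minimum of 5 or none, TPM rescaling, upper-quartile and quantile scaling, and library sizes without Rn45s, and, chosen after seeing the data, scaling by the sums of recovered reads (9486751 in NTB-GMP, 26353220 in 4T1-GMP) with and without Rn45s. The 4 motifs were chosen after these windows had been searched. Positions, overlaps and promoters came from RefSeq on GRCm38.p6, the build of mm10. Python 3.11.15, numpy 2.4.6, pandas 2.3.3, scipy 1.17.1 and matplotlib 3.10.9 were used.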

Additional observations from a re-analysis of the deposited data

How the results depend on the processing

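No paired analysis was possible because there was 1 library per group, and no replicate could be left out. When library sizes left out Rn45s, log2 ratios were 2.11 for Cybb, 0.69 for Cyba, 0.86 for Ncf1 and 1.44 for Ncf4. With quantile normalization they were 0.64 for Cyba, 0.78 for Ncf1 and 1.40 for Ncf4. Ncf1 was at 0.94 with TPM, 0.92 with upper-quartile scaling, 1.11 when scaled by the sums of recovered reads and 0.94 when those sums left out Rn45s, and Cybb was at 2.11 with a pseudocount of 1. The subunits at least 2-fold higher numbered 2 with Rn45s left out, quantile normalization, TPM, upper-quartile scaling and sums without Rn45s, and 3 otherwise. Each value here follows from the common factor or pseudocount of its setting, except quantile normalization, where the cause was not tested. The median log2 ratio of all genes shifted by -0.16 with Rn45s left out and by -0.11 with upper-quartile scaling. Among all genes, a minimum of 5 left 170 at least 2-fold higher and 181 lower, no minimum gave 734 and 1246, and a pseudocount of 1 left 299 lower. Nrros reversed, to -0.051 with Rn45s left out and -0.095 with quantile normalization. Of 24 subunit ratios under the alternatives set, 14 stayed within the reported interval. Of 228 ratios of other genes, 151 did. The depth of NTB-GMP limits the low genes: Fpr1, Fpr2 and C5ar1 rest on 4, 5 and 1 reads there.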
